A study of Mus musculus with 5 samples.

Results

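The ubiquitin-specific protease (Usp) genes and the ubiquitin C-terminal hydrolase (Uchl) genes were followed in RNA from newborn mouse ovaries that lack Lhx8. Members were all probe sets whose single gene symbol was Usp followed by a number, with a letter or an l and a number allowed after it, or was Uchl1, Uchl4 or Uchl5. Usp9y was left out by that rule, and Uchl3 had no probe set of its own. This gave 125 of the 45101 probe sets on the array, which stand for 50 of the 18193 genes with a single symbol. A further 5 probe sets that several genes share were not used. The arrays held RNA from 3 pools of Lhx8 null ovaries (replicates 1, 2 and 3) and 2 pools of wild type ovaries (replicates 2 and 3), all from female C57/BL6/129SVEV Hybrid mice at postnatal day 0.5. Each pool held 50 ovaries, which takes at least 25 animals, so replicates were pools and not single animals. How the null allele was made is not given in the sources used here. Nothing in the labels says how pools were assigned to litters or days, and p-values measure only the spread between these pools.

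Ubiquitin is a small protein that is joined to other proteins to send them to the proteasome, to sort them in the cell or to change their activity. Deubiquitinases cut it off again. The USP and UCH enzymes are cysteine proteases, and USP proteins form the largest deubiquitinase family, while UCH enzymes favour small adducts at the end of ubiquitin. Oocytes store mRNAs and proteins for the embryo, and UCHL1 is known as an abundant protein of oocytes and neurons. The product of Lhx8 is a transcription factor with LIM domains and a homeodomain that oocytes make.

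The targeted gene, Lhx8, gave signals of 333, 159 and 347 on the null arrays, against 6450.1 and 5223 on the wild type arrays. Here and below, signals stand in the order of replicates 1, 2 and 3 for null arrays and 2 and 3 for wild type arrays, and changes are log2 fold changes. Lhx8 fell by 4.45 (SE 0.29, adjusted p = 1.09e-05), and where its probes lie relative to the null allele was not tested. Deposited signals were linear intensities with a trimmed mean of 500 on every array. Differences were fitted on quantile-normalised log2(signal + 16) values with limma, and a gene passed at a Benjamini-Hochberg adjusted p below 0.05 over the 10916 genes tested. The added control RNA BioC gave 2.12 times the signal on null arrays that it gave on wild type arrays. The Actb probe set at the 3′ end over that at the 5′ end gave 1.48 to 1.69 on null arrays and 1.39 to 1.43 on wild type arrays. Both measures were apart between the groups, so differences in the handling of the arrays and in genotype cannot be told apart here. All 12 germ cell markers were lower in null ovaries, with a summed signal of 8678 to 13168 on null arrays and 77992 to 81657 on wild type arrays. Of 8 pregranulosa markers 7 were lower (17047.0 to 19523 on null arrays, 28206 to 30849.8 on wild type arrays), while all 8 stromal and smooth muscle markers were higher (107369 to 125695 on null arrays, 46753 to 52944 on wild type arrays). No marker in these lists was at 0 on any array, and all 7 tested oviduct markers and 4 of 6 endothelial markers rose. In such whole-tissue RNA, fewer cells of a type and less RNA per cell cannot be told apart, and the part that cell make-up has in the results below was not tested.

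Most of the deubiquitinase genes that could be tested were lower in Lhx8 null ovaries. Of 42 tested, 23 fell, 5 rose and 14 did not pass. The falls made up 54.8% of the members tested, where 22.3% of all tested genes fell, and the rises 11.9%, where 25.5% of all tested genes rose. In either direction 47.8% of all tested genes passed. The median log2 fold change of the 42 members was -0.50, and that of all tested genes 0.04. For 35 of the 42 (83.3%) the normalised levels of the groups were apart, against 67.8% of all tested genes. Most changes were under 2-fold. A fall of 2-fold or more was seen in 8 of the 42 members, and in 8.16% of all tested genes. A rise of 2-fold or more was seen in 1 of the 42, and in 8.88% of all tested genes. The remaining 8 members had a mean level below the brightness cutoff of 7.37, a signal of about 150.0, and were not tested. None of the 42 passed that cutoff through 1 group alone, since the mean of each group was above it for every one of them. Without the cutoff, 22 of the 50 fell (15.3% of all genes) and 4 rose (15.8% of all genes). The counts moved with other choices: with all probe sets of a gene averaged 15 fell and 4 rose, and with arrays centred on their medians 28 fell and 2 rose. Of the calls over all tested genes, 53.4% were rises before these changes. That share was 48.6% with probe sets averaged and 33.5% with median centring. Without wild type replicate 3 the median of the members was -0.54, against 0.04 over all tested genes.

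**Figure D1:**
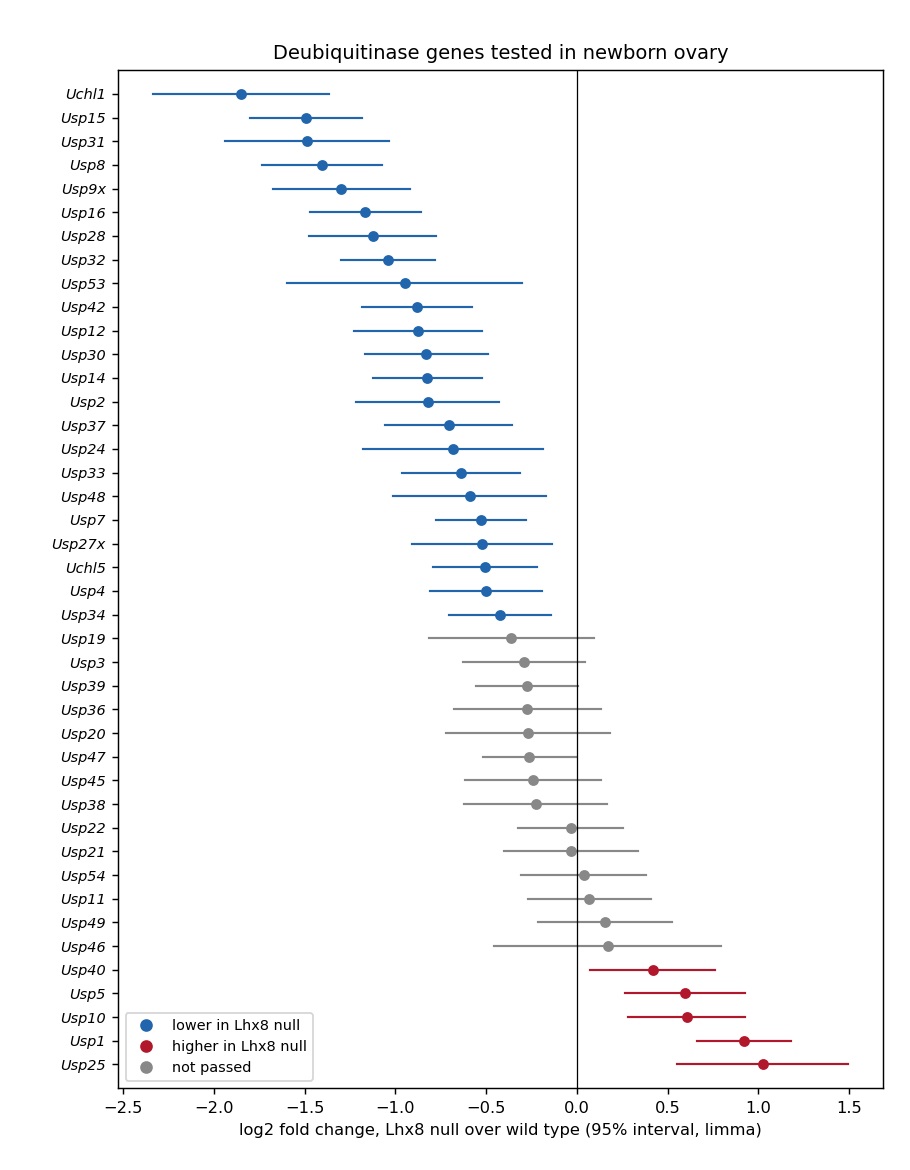
Log2 fold change of each tested deubiquitinase gene, Lhx8 null over wild type, with its 95% interval from limma, sorted from the deepest fall (top) to the largest rise (bottom). Of 42 genes, 23 fell (blue), 5 rose (red) and 14 did not pass (grey), between -1.85 for Uchl1 and 1.02 for Usp25.

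Among the UCH genes, Uchl1 had the deepest fall of all 42 members. Uchl1 encodes a hydrolase of oocytes and neurons that also binds free ubiquitin. Its signals were 3805, 2153 and 3359 on the null arrays, against 10048 and 10721 on the wild type arrays. All null arrays lay far below both wild type arrays, and replicate 2 was the lowest. Uchl1 fell by 1.85 (SE 0.21, adjusted p = 0.000187), with means of 3106 ± 855 (SD, n = 3) in null ovaries, against 10385 ± 476 (SD, n = 2) in wild type ovaries. The 4 tested genes of the neuron marker list of 12 (Stmn2, Nefm, Nefl and Gap43) were all higher in null ovaries. The rest of the 11 measured were under the brightness cutoff. The summed signal of the 11 was 6068 to 7860.0 on null arrays and 2015 to 2227 on wild type arrays. The part of neurons or of oocytes in the Uchl1 level was not tested. Uchl5, the UCH enzyme that sits on the proteasome and in the INO80 chromatin remodeller, had signals of 1907, 2199 and 2210.3 on the null arrays, against 2877.5 and 3339 on the wild type arrays. It fell by 0.51 (SE 0.13, adjusted p = 0.00977), and without wild type replicate 3 its value was -0.41 (adjusted p = 0.0855). Uchl4, a mouse gene with high similarity to Uchl3, was dim, at 34.1, 6.9 and 13.7 on the null arrays, against 1.8 and 3.6 on the wild type arrays, and was not tested.

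The stretches from 250 bases before to 50 bases after the annotated start are shown for the fallen genes Uchl1, Usp15, Usp31 and Usp16 and the risen gene Usp25, from RefSeq's promoter table (GRCm38.p6). Uchl1, Usp15 and Usp31 had the deepest falls, Usp25 had the largest rise, and Usp16 was chosen as the fallen gene with a homeodomain core. Usp1 and Usp9x are named only. Capitals mark matches on either strand to TAATTA (the core bound by LIM homeodomain proteins), TAATTG (the NOBOX element), CACGTG (an E-box) and GGGCGG (a GC box), and no match overlapped a match to another motif in these 5 windows.
Uchl1 (chr5:66675871-66676170, plus strand): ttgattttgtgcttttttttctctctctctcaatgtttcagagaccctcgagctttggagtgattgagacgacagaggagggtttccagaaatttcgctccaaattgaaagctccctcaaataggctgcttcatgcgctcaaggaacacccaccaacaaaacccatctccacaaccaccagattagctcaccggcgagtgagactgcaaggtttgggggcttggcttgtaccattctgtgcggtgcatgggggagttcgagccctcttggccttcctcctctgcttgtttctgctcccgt
Usp15 (chr10:123196970-123197269, minus strand): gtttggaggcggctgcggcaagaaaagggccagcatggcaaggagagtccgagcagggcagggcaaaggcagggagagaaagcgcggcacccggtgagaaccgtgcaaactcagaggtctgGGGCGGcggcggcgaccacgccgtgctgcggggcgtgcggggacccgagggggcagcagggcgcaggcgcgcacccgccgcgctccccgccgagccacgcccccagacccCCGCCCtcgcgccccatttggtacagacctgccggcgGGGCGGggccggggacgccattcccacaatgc
Usp31 (chr7:121707393-121707692, minus strand): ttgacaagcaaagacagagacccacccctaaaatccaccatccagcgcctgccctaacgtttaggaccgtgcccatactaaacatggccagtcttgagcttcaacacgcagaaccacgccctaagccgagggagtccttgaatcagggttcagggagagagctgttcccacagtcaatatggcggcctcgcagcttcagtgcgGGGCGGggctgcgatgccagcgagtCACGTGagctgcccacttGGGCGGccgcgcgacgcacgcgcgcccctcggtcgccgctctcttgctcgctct
Usp16 (chr16:87454735-87455034, plus strand): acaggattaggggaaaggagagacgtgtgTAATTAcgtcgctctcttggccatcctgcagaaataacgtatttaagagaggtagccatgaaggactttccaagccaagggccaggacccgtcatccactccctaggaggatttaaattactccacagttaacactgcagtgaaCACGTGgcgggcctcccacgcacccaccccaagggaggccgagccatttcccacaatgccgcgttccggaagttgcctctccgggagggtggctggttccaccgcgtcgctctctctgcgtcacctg
Usp25 (chr16:77013819-77014118, plus strand): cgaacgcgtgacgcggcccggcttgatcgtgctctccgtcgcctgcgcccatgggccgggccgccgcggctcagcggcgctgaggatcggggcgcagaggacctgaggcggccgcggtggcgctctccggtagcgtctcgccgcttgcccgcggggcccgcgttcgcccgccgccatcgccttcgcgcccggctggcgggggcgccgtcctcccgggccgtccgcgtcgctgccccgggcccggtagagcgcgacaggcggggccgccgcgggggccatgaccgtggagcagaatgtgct

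The table held a promoter for 38 of the 50 members, of which 18 fell, 3 rose, 12 did not pass and 5 were not tested. TAATTA was present in 3 of the 38 and in 5.29% of all 32851 promoters. These were Usp16, the only 1 of the 18 fallen genes, and Uchl4 and Usp26, which were not tested. TAATTG was present in none of the 38 and in 8% of all promoters. CACGTG was present in 4 of the 18 fallen genes (Usp4, Usp16, Usp31 and Usp32) and in none of the 3 risen or 12 not passed, against 7.15% of all promoters. The GC box was present in 15 of 18 fallen genes, in 9 of 12 that did not pass and in none of the 3 risen genes, against 35.7% of all promoters. Member promoters were rich in G and C, with a median of 65% against 52.7% over all promoters, and ranged from 50.7% in Uchl1 to 79% in Usp25 among the windows shown. These are matches of letters in short windows, and no binding was measured.

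All 4 members placed with WNT and TGF-beta signalling fell, where 22.3% of all tested genes fell. That count depends on the placing, since Usp11, a relative of Usp15 and Usp4, was placed with DNA damage and p53. Usp11 did not pass, at 0.07 (adjusted p = 0.739). Usp15, whose product acts on receptor-regulated SMAD proteins, had signals of 811, 912 and 819.7 on the null arrays, against 2336.5 and 2645 on the wild type arrays. The groups were well apart, and Usp15 fell by 1.49 (SE 0.14, adjusted p = 5.3e-05), the smallest adjusted p among the members. Usp9x, an X-linked gene for a large enzyme acting on SMAD4 and beta-catenin, had 1636, 1176 and 1643 on the null arrays, against 3829.5 and 3679.6 on the wild type arrays. Replicate 2 was again the lowest null array, and Usp9x fell by 1.30 (SE 0.17, adjusted p = 0.000307). Usp4, the paralogue of Usp15, had 1423, 1286 and 1337 on the null arrays, against 2202 and 1825 on the wild type arrays, and fell by 0.50 (SE 0.14, adjusted p = 0.0149). Usp34, which acts on axin, had 3593, 3042.5 and 3163 on the null arrays, against 4649 and 4322.5 on the wild type arrays, and fell by 0.42 (SE 0.12, adjusted p = 0.0203). These smaller falls depended on single arrays: Usp4 had -0.36 (adjusted p = 0.113) without wild type replicate 2 and -0.47 (adjusted p = 0.0538) without null replicate 2. With its probe sets averaged Usp4 stood at -0.06 (adjusted p = 0.825). Usp34 lost its call without any array other than null replicate 1, with values of -0.36 to -0.49, adjusted p from 0.0559 to 0.117, and had -0.67 (adjusted p = 0.00294) with its probe sets averaged.

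Of 7 members grouped for roles in receptor sorting or on membranes, 5 fell (71.4%, against 22.3% of all tested genes) and none rose. Usp8, which removes ubiquitin from receptors at the endosome, had signals of 1056, 803 and 917 on the null arrays, against 2604 and 2473 on the wild type arrays. Every null array was under all wild type arrays by a wide margin, and Usp8 fell by 1.40 (SE 0.15, adjusted p = 0.000103). Usp32, an enzyme of late endosomes, had 2067, 1886 and 2056 on the null arrays, against 4241 and 4229.9 on the wild type arrays, with little spread in either group. It fell by 1.04 (SE 0.11, adjusted p = 0.000138). Usp30, which sits on the outer mitochondrial membrane and opposes mitophagy, had 503, 571 and 507 on the null arrays, against 1019 and 896 on the wild type arrays, and fell by 0.83 (SE 0.15, adjusted p = 0.00195). Usp2, placed here but better known for roles in circadian and growth control, fell by 0.82 (signals of 541, 576 and 566 on the null arrays, against 1215 and 846 on the wild type arrays), and Usp33, which acts on receptors and centrosomes, fell by 0.64 (signals of 809.6, 978 and 929 on the null arrays, against 1519.9 and 1423 on the wild type arrays). Usp19, anchored in the endoplasmic reticulum, and Usp20, the paralogue of Usp33, did not pass, at -0.36 (95% interval -0.82 to 0.09) and -0.27 (95% interval -0.72 to 0.18). A dimmer probe set of Usp8 and one of Usp32 gave 1.03 and 1.01 without passing, and with probe sets averaged these genes stood at -0.19 (adjusted p = 0.621) and -0.21 (adjusted p = 0.36).

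Among 11 members that remove ubiquitin from histones or act on chromatin, 10 were tested, 4 fell (40%, against 22.3% of all tested genes) and none rose. Usp16, an H2A deubiquitinase, had signals of 962, 843 and 1018 on the null arrays, against 2223 and 2179.8 on the wild type arrays. The null arrays were all below the wild type arrays, which almost coincided, and Usp16 fell by 1.17 (SE 0.14, adjusted p = 0.000187). Usp42, an enzyme linked to p53 and H2B, had 1784, 1705 and 2099 on the null arrays, against 3724 and 3342 on the wild type arrays, and fell by 0.88 (SE 0.13, adjusted p = 0.000781). With its probe sets averaged Usp42 had -0.65 (adjusted p = 0.0611), the second probe set being close to background. Usp12, which works with the WD-repeat proteins WDR48 and WDR20, had 639, 497 and 551 on the null arrays, against 1013 and 1106 on the wild type arrays, and fell by 0.88 (SE 0.15, adjusted p = 0.00174). Usp27x, a relative of Usp22, fell by 0.52 (signals of 329.7, 361 and 341 on the null arrays, against 517 and 446 on the wild type arrays). Its call held without null replicate 1, at -0.47 (adjusted p = 0.0403), and was lost without each of the other arrays (-0.43 to -0.59, adjusted p from 0.0509 to 0.168), and with its probe sets averaged (-0.40, adjusted p = 0.224). Usp22, the deubiquitinase of the SAGA coactivator, was at -0.04 (95% interval -0.33 to 0.26), with 3461, 3909.7 and 4081 on the null arrays, against 4368 and 3614 on the wild type arrays, so that the groups overlapped. The dimmer probe set of Usp22 was lower on every null array, at -0.58 in the fit over every probe set (adjusted p = 0.066). With its probe sets averaged Usp22 had -0.31 (adjusted p = 0.09). The others that did not pass were Usp3, Usp36, Usp21, Usp49 and Usp46, between -0.29 and 0.17. Usp44, known for the spindle checkpoint, was near background on all arrays, at 32.3, 3.7 and 7.4 on the null arrays, against 28.7 and 3.5 on the wild type arrays.

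In the DNA damage and p53 group 3 of 8 fell (37.5%, against 22.3% of all tested genes) and 2 rose (25%, against 25.5% of all tested genes), so the rises were as frequent as over all genes. Usp1, the enzyme that takes ubiquitin off FANCD2 and PCNA, had signals of 7119.9, 9338 and 7707 on the null arrays, against 4027 and 4271 on the wild type arrays. It rose by 0.92 (SE 0.11, adjusted p = 0.000258), with means of 8055 ± 1149 (SD, n = 3) in null ovaries, against 4149 ± 173 (SD, n = 2) in wild type ovaries. With its probe sets averaged Usp1 had 0.61 (adjusted p = 0.0036). Of the Fanconi proteins listed as its partners, Fancd2 fell by 1.67 (signals of 242, 318 and 277 on the null arrays, against 946.5 and 849 on the wild type arrays) and Fanci fell by 1.44 (signals of 187, 306 and 254 on the null arrays, against 617 and 698 on the wild type arrays). Usp10, which acts on p53 and binds the stress granule protein G3BP1, had 1824, 1659.8 and 1769 on the null arrays, against 1351 and 1059 on the wild type arrays. It rose by 0.60 (SE 0.14, adjusted p = 0.00737), but stood at 0.30 (adjusted p = 0.154) with arrays centred on their medians and at 0.44 (adjusted p = 0.0692) without wild type replicate 3. G3bp1 rose too, by 0.71, and had 0.41 (adjusted p = 0.0502) after median centring and 0.55 (adjusted p = 0.0509) without wild type replicate 3.

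Usp28, which stabilises MYC and binds 53BP1, had signals of 349, 361 and 352 on the null arrays, against 833 and 727 on the wild type arrays. The null arrays were nearly equal, and Usp28 fell by 1.13 (SE 0.16, adjusted p = 0.000465). Usp7, the deubiquitinase of MDM2 and p53, had 2877, 2706 and 2702 on the null arrays, against 4044 and 4123 on the wild type arrays, and fell by 0.53 (SE 0.11, adjusted p = 0.00385). Mdm2, the ubiquitin ligase of p53, fell by 1.01 (signals of 644, 568 and 622 on the null arrays, against 1398 and 1164 on the wild type arrays). Usp24, a large enzyme related to Usp9x, fell by 0.68 (signals of 479.8, 649 and 809.5 on the null arrays, against 1066 and 1007 on the wild type arrays), and lost its call without the wild type array of replicate 2 (-0.65, adjusted p = 0.142) or that of replicate 3 (-0.71, adjusted p = 0.125) and with its probe sets averaged (-0.24, adjusted p = 0.29). Usp47, Usp45 and Usp11 did not pass, at -0.26 (95% interval -0.52 to -0.01), -0.24 and 0.07. Without null replicate 1, Usp47 passed at -0.32 (adjusted p = 0.0357).

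The members that handle free ubiquitin chains and the proteasome split. Usp14, which trims chains on the proteasome, had signals of 1875, 2325 and 2376 on the null arrays, against 3767 and 4212 on the wild type arrays, and fell by 0.82 (SE 0.13, adjusted p = 0.00108). Usp5, which takes unanchored chains apart, had 1242, 1440.0 and 1455 on the null arrays, against 1029.6 and 849 on the wild type arrays. It rose by 0.60 (SE 0.15, adjusted p = 0.00911). Like Usp10, Usp5 did not pass with arrays centred on their medians (0.30, adjusted p = 0.192) or without wild type replicate 3 (0.47, adjusted p = 0.083). With probe sets averaged Usp14 had -0.32 (adjusted p = 0.0741). Usp13, the paralogue of Usp5, was under the cutoff, at 157, 111 and 89 on the null arrays, against 98.3 and 109.5 on the wild type arrays.

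In the inflammation group Usp31 and Usp48 fell and Usp25 rose. Usp31, an enzyme studied in NF-kappaB signalling, had signals of 179.8, 152 and 194 on the null arrays, against 508 and 453 on the wild type arrays. It fell by 1.49 (SE 0.20, adjusted p = 0.000395), and with its probe sets averaged it was under the cutoff and not tested. Usp48, which acts on the NF-kappaB subunit RELA, had 1237, 791 and 911 on the null arrays, against 1510.5 and 1544 on the wild type arrays, with replicate 1 the highest null array. It fell by 0.59 (SE 0.19, adjusted p = 0.0278). Without null replicate 1 the same probe set gave -0.78 (adjusted p = 0.00144). When the brightest probe set was also chosen anew without that array, another one stood for Usp48, at -1.15 (adjusted p = 0.000192). Without any other single array the call was lost (-0.45 to -0.60, adjusted p from 0.0651 to 0.139), and with its probe sets averaged it was kept at -0.89 (adjusted p = 0.00178). Usp25, a regulator of innate immune signalling, had 691, 1104 and 949 on the null arrays, against 434.5 and 424 on the wild type arrays, and its fit gave a rise of 1.02 (SE 0.21, adjusted p = 0.00351), the largest among the members. The 7 macrophage markers had summed signals of 8815 to 10439 on null arrays and 2306 to 2391 on wild type arrays, and 6 of them rose. The part of such cells in the Usp25 level was not tested. Usp38 did not pass (-0.23), and Usp18, the protease for the interferon-induced modifier ISG15, was dim, at 67.1, 68.2 and 83.5 on the null arrays, against 118 and 61.7 on the wild type arrays.

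Usp37, which acts on cyclin A, had signals of 708, 692 and 836 on the null arrays, against 1147 and 1375 on the wild type arrays. It fell by 0.71 (SE 0.15, adjusted p = 0.00515), and had -0.58 (adjusted p = 0.0614) without wild type replicate 3. Of the members long listed as inactive, Usp53, a protein of tight junctions, had 336, 506 and 678 on the null arrays, against 854 and 1060.1 on the wild type arrays. Its null arrays spread widely but stayed below the wild type arrays, and Usp53 fell by 0.95 (SE 0.28, adjusted p = 0.0225). The call did not hold without the wild type array of replicate 2 (-1.10, adjusted p = 0.0687) or that of replicate 3 (-0.78, adjusted p = 0.178), or with probe sets averaged (-0.14, adjusted p = 0.594). Usp39, a splicing factor, and Usp54 did not pass, at -0.28 and 0.04. Usp40 had 774, 674 and 626 on the null arrays, against 513 and 504 on the wild type arrays, and rose by 0.42 (SE 0.15, adjusted p = 0.0484), just inside the threshold. Leaving out any single array ended that call (0.35 to 0.49, adjusted p from 0.0622 to 0.153), as did median centring (0.18, adjusted p = 0.367), averaging of its probe sets (0.47, adjusted p = 0.0875) and the replicate block (0.34, adjusted p = 0.0896). Usp26 and Usp29, known from male germ cells and as an imprinted gene beside Peg3, were near background on all arrays, at 38.7, 25.2 and 33.4 on the null arrays, against 16.7 and 33.7 on the wild type arrays for Usp26 and 27.3, 22 and 52.7 on the null arrays, against 58.3 and 54.9 on the wild type arrays for Usp29. Usp43 and Usp50 were also under the cutoff.

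**Figure D2:**
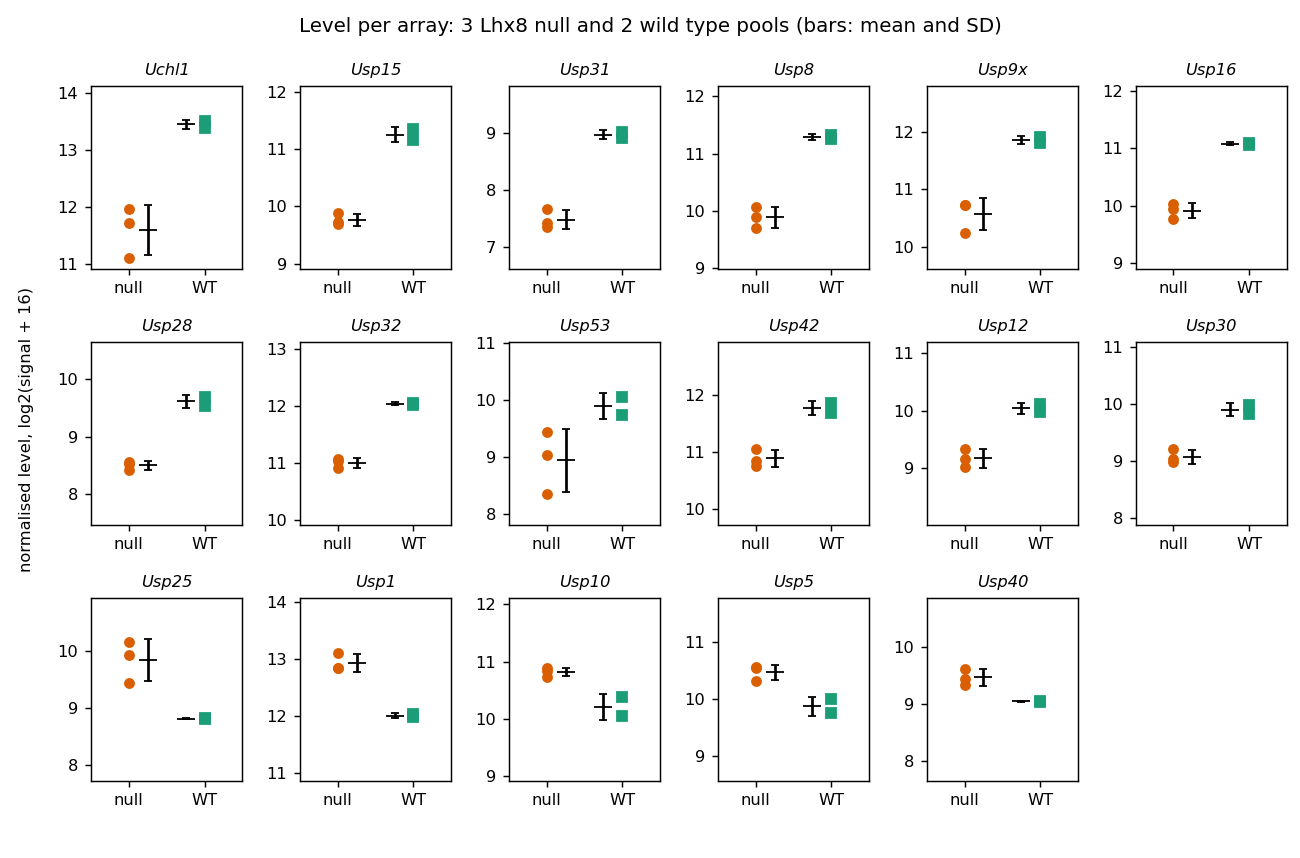
Normalised level, log2(signal + 16), of the 12 deepest falls and the 5 rises on each array, with Lhx8 null pools (circles) left of wild type pools (squares) and bars for mean and SD. In every panel the 3 null points lie apart from the 2 wild type points, with the widest null spread in Usp53, whose signals ran from 336 to 678.

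Close relatives within the family did not always share a direction. Usp28 and Usp25, sister genes, had opposite calls, at -1.13 (95% interval -1.48 to -0.77) and 1.02 (95% interval 0.55 to 1.49), so their intervals were apart and on either side of 0. Usp12 fell by 0.88, while its close relative Usp46 was at 0.17 with an interval of -0.45 to 0.79. Usp46 had 1089, 544 and 561 on the null arrays, against 608 and 625 on the wild type arrays, and null replicate 1 alone was high. Usp46 stood at -0.15 (adjusted p = 0.418) without that array and at -0.09 (adjusted p = 0.761) with its probe sets averaged. Its other probe set gave -0.34 in the fit over every probe set (adjusted p = 0.216). Without any other single array Usp46 was positive, at 0.14 to 0.34, so its direction was not settled. Usp15 and Usp4 both fell, with -1.49 and -0.50, and the third of that trio, Usp11, was at 0.07 (95% interval -0.27 to 0.41). Usp9x and Usp24 both fell. For Usp33 and Usp20 the values were -0.64 and -0.27, with overlapping intervals. Differences between relatives were not themselves tested.

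Where a gene had several probe sets, none had calls in both directions. Of 125 probe sets, 44 were lower, 4 higher and 77 not passed in a fit over every probe set, where 10.3% of all probe sets were lower and 10.7% higher. Of the 79 probe sets at or above the cutoff, 35 were lower (18% of all such probe sets), and of the 46 under it 9 were (4.28% of all such probe sets). Among the 37 genes with 2 or more probe sets, 19 had calls only downward, 2 only upward and 16 none. The same count was not made over all genes, so how usual such agreement is on these arrays was not tested. Usp9x was lower at all 7 of its probe sets, with log2 fold changes of -0.95 to -2.75, and Usp31 at all 4, with -1.28 to -1.97. Usp15 was lower at 4 of 6, with values of -1.49, -1.82, -2.24 and -2.44, and its other probe sets had signals of at most 84.3 on any array. Usp7 was lower at 4 of 7 (-0.53 to -1.14), while the others stood at -0.05 to -0.07. The 3 probe sets of Usp1 gave 0.92, 0.47 and 0.44, and only the first, the brightest, passed. Those of Usp48 gave -0.59, -1.04 and -1.05, and its 2 dimmer ones passed in this fit. Usp24 had 1 of 4 lower, at -0.98, and another at 0.35 that did not pass. Probe sets ending in _x_at or _s_at, among them the brightest of Usp7, can match more than 1 transcript.

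**Figure D3:**
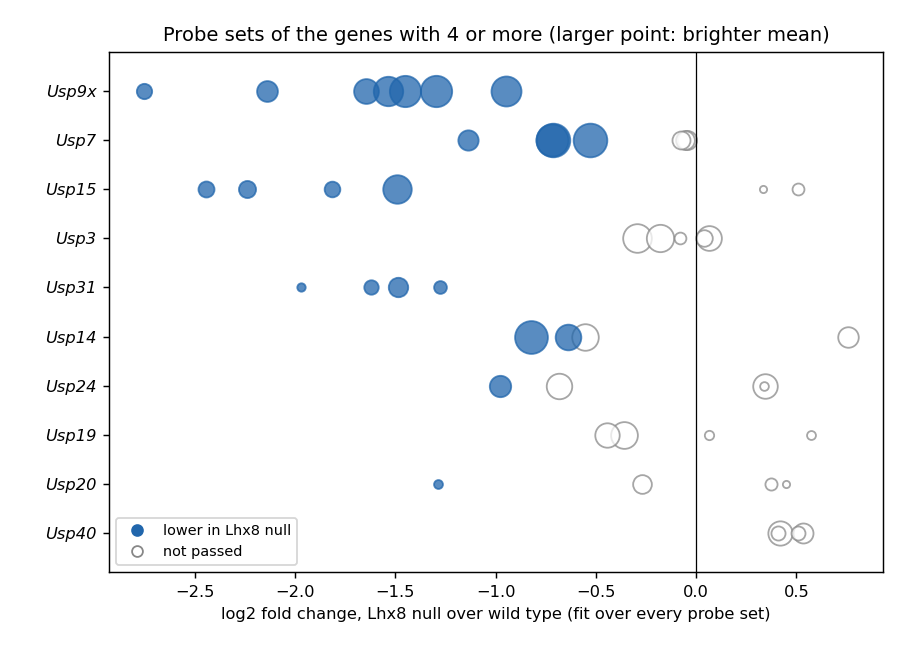
Log2 fold change, Lhx8 null over wild type, of each probe set of the 10 member genes with 4 or more, in a fit over every probe set. Filled points passed, and point size grows with the mean level. All 7 points of Usp9x and all 4 of Usp31 lie left of 0, and none of the points passed upward.

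Other parts of the ubiquitin system also held genes that fell and genes that rose. Of 28 tested deubiquitinases of other families, 10 fell (35.7%, against 22.3% of all tested genes) and 5 rose (17.9%, against 25.5%), with a median of -0.29. Of the risen genes, Otub2 passed the brightness cutoff of 7.37 only through the null group, with mean levels of 7.76 in null and 6.88 in wild type ovaries. Zup1, an enzyme for K63-linked chains, fell by 1.58 (signals of 636, 669.5 and 713 on the null arrays, against 1882 and 2339 on the wild type arrays). Stambpl1, Otud1, Otud4 and Mindy3 fell too, with -1.40, -1.37, -1.25 and -0.90, and with probe sets averaged Otud4 had -2.12 (adjusted p = 7.12e-06) and Mindy3 had -0.23 (adjusted p = 0.325). Of 29 E1 and E2 genes 12 fell (41.4%) and 4 rose (13.8%), with a median of -0.15. Ube2t, the E2 that monoubiquitinates FANCD2, had 526, 532 and 497 on the null arrays, against 1724 and 2174.5 on the wild type arrays, and fell by 1.84. Ube2w, Ube2q2, and the mitotic E2 genes Ube2c and Ube2s fell too, with -1.80, -1.46, -1.41 and -0.76. With probe sets averaged Ube2w, Ube2t and Ube2s had -0.50 (adjusted p = 0.0774), -0.41 (adjusted p = 0.134) and -0.28 (adjusted p = 0.237).

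Of 37 proteasome subunit genes 13 fell (35.1%) and 3 rose (8.11%), with a median of -0.15, and 43.2% passed in either direction, against 47.8% of all tested genes. Psma8, a subunit known from meiotic germ cells, fell by 2.16 (signals of 224, 140.1 and 247 on the null arrays, against 850.5 and 965 on the wild type arrays), and Psmd10, Psmd2, Psmb7 and Psmb4 fell too, with -1.42, -0.84, -0.66 and -0.54. Psmd2 and Psmb4 had -0.50 (adjusted p = 0.149) and -0.36 (adjusted p = 0.0889) with probe sets averaged. Of 19 genes for partners or substrates of members, 5 fell (26.3%) and 4 rose (21.1%), with a median of -0.11, shares near the 22.3% and 25.5% of all tested genes. The risen Atxn7l2 passed the brightness cutoff of 7.37 only through the null group, with mean levels of 8.01 in null and 6.73 in wild type ovaries. Atxn7l3, which holds Usp22 in the SAGA module, rose by 0.84 (signals of 1864, 1740.1 and 1634 on the null arrays, against 999.8 and 1003 on the wild type arrays), while Usp22 did not pass. After median centring Atxn7l3 had 0.54 (adjusted p = 0.00999). Whether these lists differ from one another or from the members was not tested.

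**Figure D4:**
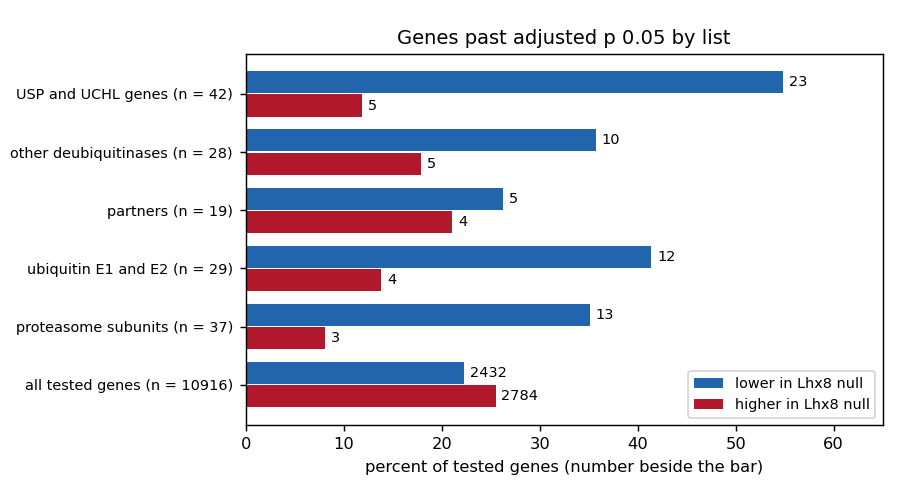
Percent of tested genes lower (blue) or higher (red) in Lhx8 null ovaries at adjusted p below 0.05, with counts beside the bars, for the members, 4 other lists of the ubiquitin system and all tested genes. The members had 23 of 42 lower, against 2432 of all 10916 tested genes.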

How the data were processed

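RNA of 5 pools of newborn ovaries, 3 Lhx8 null and 2 wild type, was measured on 1 array each, with groups and replicate numbers from the labels. The deposited values are linear intensities, 1 per probe set and array, with a trimmed mean of 500 on every array. The submitters' processing notes name GCOS on wild type arrays, and for null arrays no software is given in the sources used here. Pairs of arrays were checked for copies (64 to 120 of 45101 values equal).

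The deposited signals were turned into log2(signal + 16) and made equal in distribution by quantile normalisation (limma 3.58.1, R 4.3.3), since array medians differed (7.00 to 7.18 on null and 6.80 to 6.83 on wild type arrays). The brightest probe set stood for each of 18193 genes, and leaving out the dimmest 40% left 10916. The 34945 probe sets with 1 symbol came from the platform annotation; 932 had several, 9160 had none and 64 were controls. Null minus wild type was tested with lmFit and eBayes with a variance trend (two-sided, Benjamini-Hochberg over all tested genes, threshold 0.05), the source of all adjusted p-values and 95% intervals. A second fit covered every probe set with no filter. The added constant shrinks folds of dim genes. The steps were checked on simulated arrays in which few genes changed, equally in each direction. That check does not cover changes in as many genes as passed here. The number of arrays limits the precision.

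Genes named in full were Lhx8, the Uchl genes, up to 12 falls and 12 rises with arrays that did not overlap, genes with probe sets called in both directions, and 5 genes per other list with the smallest p. Other members, named by role, were chosen after their values were seen. Members and lists were chosen with earlier results of these data known. List genes with no single-symbol probe set were not analysed here. Promoters came from RefSeq's table for GRCm38.p6, and figures from matplotlib 3.10.9. Alternatives covered scaling, constant, filter, probe set choice, variance trend, threshold, replicate block and each array left out.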

Additional observations from a re-analysis of the deposited data

How the results depend on the processing

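With 23 members lower and 5 higher, the count of lower members was 28 after median centring of the arrays, which moved the median of all tested genes from 0.04 to -0.18 and the share of higher genes among all calls from 53.4% to 33.5%. Usp3, Usp19, Usp39, Usp45 and Usp47 then passed as lower, higher members numbered 2 (Usp1 and Usp25), and higher genes overall 1720. With all probe sets of a gene averaged, 15 members were lower, with 9 calls lost, Usp45 gained and Usp31 no longer tested. The share of higher genes among all calls was then 48.6%. At an adjusted p below 0.01, 17 members were lower and 4 higher, and 1829 of all genes were higher, which was 52.1% of all calls. In the fit over every probe set, 4655 probe sets were lower and 4811 higher. Leaving out 1 array at a time gave 16 to 24 lower and 2 to 4 higher members, and 1544 to 2630 lower and 1843 to 2918 higher genes. The lowest counts came without wild type replicate 3. These fits chose the brightest probe set anew, which changed it for Usp7, Usp9x, Usp45 and Usp48 without null replicate 1. With probe sets and tested genes kept, an alternative chosen after seeing the data, the members gave the same counts, and all genes 1618 to 2564 lower and 1798 to 2971 higher. The cause of these shifts was not tested. No called member that had a value changed sign in the alternatives tried, and Usp31 had none with probe sets averaged, nor Usp27x, Usp28 and Usp31 with the dimmest 60% left out. Median centring moved Uchl5, Usp4, Usp7, Usp34 and Usp48 by over 1.5 times, to -0.80, -0.81, -0.81, -0.70 and -0.90. All 28 calls were kept with the deposited scaling, with constants of 1 or 64 and without the variance trend. The replicate block, which treats equal replicate numbers as pairs, ended the call of Usp40 (0.34, adjusted p = 0.0896) and of no other member. It gave 23 lower and 4 higher members, and 54.1% of the calls over all genes were higher. Deviations from the group means correlated at 0.0083 for replicates 2 and 0.0078 for replicates 3. With 2 wild type arrays their deviations are equal and opposite, so these values cannot decide whether the numbers mark pairs. Signal over background limits the 8 dim members, whose values say little.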
